A study of Mus musculus with 15 samples.

Results

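The 9 genes followed here belong to the response of the liver to growth hormone (GH). They are its receptor Ghr, the transducer Stat5b, the hormone Igf1, the feedback inhibitors Socs2 and Cish, and the male-biased targets Hsd3b5, Slco1a1, Elovl3 and Cyp7b1. They were chosen by name from a list of GH and STAT5 dependent liver genes, with earlier results of these data known. Counts among them beside the share of all genes are therefore a description and not a test. All 9 were present among the 12393 genes on the arrays. A gene was the average of the probe sets whose only symbol was that gene, which gave 1 probe set for Hsd3b5, Elovl3 and Cish, 2 for Slco1a1, Cyp7b1, Socs2 and Stat5b, and 3 for Igf1 and Ghr. Hsd3b5 and Slco1a1 were low in all 5 tumors and all 5 peritumoral livers of MAT1A knockout mice and high in 4 of the 5 wild type livers, but they were as low in wild type replicate 4. With that array in the group, none of the 9 genes passed the test of the main fit in any comparison. Some alternative fits that kept it, such as 1 that weighted the arrays, did call members against wild type liver. In the main fit without wild type replicate 4, Hsd3b5, Slco1a1 and Elovl3 were lower both in tumors and in peritumoral liver.

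GH binds its receptor on hepatocytes, and the kinase JAK2 bound to the receptor then phosphorylates STAT5B, which dimerizes and enters the nucleus. STAT5B turns on Igf1, the circulating mediator of growth, and the genes of SOCS proteins that damp the receptor. In mice the pituitary releases GH in pulses in males and more evenly in females, and the pulses keep a set of male-biased liver genes on and a set of female-biased genes off.

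The 15 arrays measured liver RNA of mice of strain C57B6SJL at 15 months of age. Of these, 5 were tumors and 5 were peritumoral tissue from MAT1A knockout (KO) mice with hepatocellular carcinoma, and 5 were livers of healthy wild type mice. MAT1A is the liver enzyme that makes S-adenosylmethionine, and the labels do not give the sex of the mice. The labels number the KO samples as biological replicates and the wild type samples as replicates only, so the spread between wild type samples, on which the p-values rest in part, may be partly technical. Whether a tumor and a peritumoral sample came from 1 animal is not given. Levels below are RMA values on the log2 scale, where 1 unit is a factor of 2, and differences are log2 ratios with the standard error (SE) of limma.

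The STAT5 dimer binds the motif TTCNNNGAA, which is its own reverse complement, so a search of 1 strand covers both. In RefSeq GRCm38.p6, promoter windows of 250 bases before and 50 bases after the start of transcription were found for 6 of the 9 genes, in 8 windows. No window was found for Elovl3, Cyp7b1 and Socs2, so these were not searched. Of the 8 windows only that of Cish held the motif, while 8.3% of all 32851 windows held it. The stretch around the start of Cish is shown with the same stretch of Hsd3b5 and Slco1a1, a pair of the genes that were lower without wild type replicate 4, and capitals mark the motif. Each runs from 100 bases before the start to 22 bases from the start onward.
Cish, chr9:107296559-107296680, plus strand: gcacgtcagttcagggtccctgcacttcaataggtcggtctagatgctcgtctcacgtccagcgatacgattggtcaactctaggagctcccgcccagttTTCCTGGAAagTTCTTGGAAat
Hsd3b5, chr3:98645513-98645634, minus strand: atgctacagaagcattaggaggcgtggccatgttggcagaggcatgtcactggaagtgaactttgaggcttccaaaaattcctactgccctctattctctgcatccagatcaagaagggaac
Slco1a1, chr6:141946941-141947062, minus strand: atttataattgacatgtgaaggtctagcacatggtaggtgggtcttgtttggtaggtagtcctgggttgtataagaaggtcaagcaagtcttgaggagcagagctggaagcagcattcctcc
The 2 motifs of Cish start at bases 1 and 12, counted from the start of transcription as base 1. A match describes the letters only, and elements farther away were not searched.

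The targeted gene was lower in every KO array than in any wild type array. Mat1a lay between 8.34 and 10.49 in tumors and between 8.84 and 11.44 in peritumoral liver, against 12.25 to 12.72 in wild type liver. Hepatocyte markers were high in every array, and their mean over 7 genes lay between 13.19 and 13.83 in tumors, 13.61 and 13.95 in peritumoral liver, and 13.53 and 13.93 in wild type liver. Xist lay between 3.27 and 3.81 in all 15 arrays, near the bottom of the scale. The Y-linked gene Eif2s3y lay between 4.02 and 7.04 in tumors and 7.46 and 8.30 in peritumoral liver, against 7.75 to 8.32 in wild type liver, and was lower in tumors with a log2 ratio of -2.73 (adjusted p = 0.0468). Tumor replicate 2, tumor replicate 5, peritumoral replicate 2 and wild type replicate 4 had the highest scores on the first principal component. These were 60.7, 25.4, 58.4 and 10.4, against -26.7 to 0.6 in the other 11 arrays. Wild type replicate 4 lay closer to the highest of those 11 than to tumor replicate 5.

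Hsd3b5, a steroid reductase of male mouse liver, was at 3.68, 3.77, 4.04, 3.86 and 3.94 in tumor replicates 1 to 5. It was at 3.86, 3.74, 4.83, 3.40 and 3.55 in the peritumoral arrays. Wild type replicates 1, 2, 3 and 5 were at 11.25, 11.14, 10.51 and 11.37, and wild type replicate 4 was at 3.68. The 10 KO arrays and wild type replicate 4 thus lay together, more than 5 units below the other 4 wild type arrays, with no array in between. All 11 low arrays had Hsd3b5 between the 8.9 and 39.5 percentile of their own genes, where RMA levels are close to background, so the ratio may be set in part by that floor. In bulk tissue, fewer cells that express a gene and less RNA per cell cannot be told apart.

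Slco1a1, which encodes a transporter for organic anions such as bile acids, split the arrays in the same way. The tumors had 5.39, 4.39, 3.88, 5.06 and 3.90, and the peritumoral arrays had 4.23, 4.44, 4.28, 3.94 and 3.92. Wild type replicates 1, 2, 3 and 5 had 9.42, 9.90, 9.75 and 9.62, while wild type replicate 4 had 4.15. Both probe sets showed the split.

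Elovl3, an elongase of very long chain fatty acids, was lower in the KO arrays but varied among them. It was at 8.003, 4.48, 9.35, 6.81 and 4.50 in tumors and at 6.24, 4.28, 10.06, 6.28 and 5.69 in peritumoral liver. Wild type replicates 1, 2, 3 and 5 lay between 12.46 and 12.98, and wild type replicate 4 was at 4.66. The highest KO array, peritumoral replicate 3, remained below these 4 wild type arrays by over 2 units, and the range was 4.87 in tumors, 5.78 in peritumoral liver and 0.52 in the 4 wild type arrays.

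Cyp7b1, the hydroxylase of the acidic pathway of bile acid synthesis, followed Elovl3 with a smaller range. Its levels were 10.72, 8.49, 11.16, 10.59 and 8.50 in tumors and 9.91, 8.26, 11.74, 10.05 and 9.63 in peritumoral liver. Wild type replicates 1, 2, 3 and 5 had 12.47, 12.33, 12.59 and 11.80, and wild type replicate 4 had 9.77. Peritumoral replicate 3, at 11.74, came within 0.1 of the lowest of these 4 wild type arrays.

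**Figure D1:**
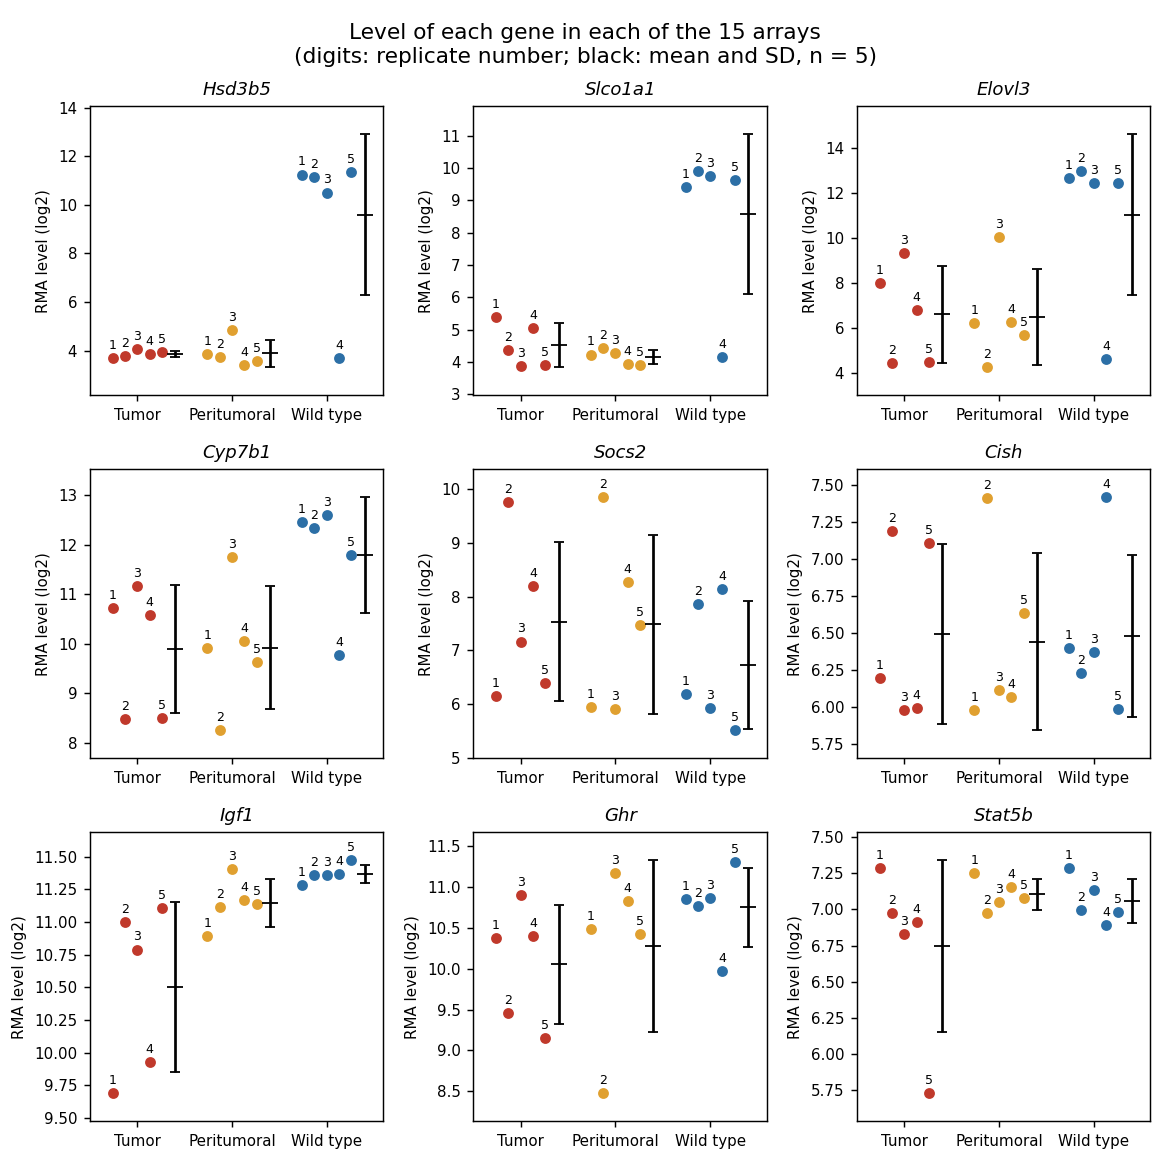
RMA level (log2, own axis range for each gene) of the 9 genes in each tumor, peritumoral and wild type array, with the replicate number above each point and the mean and SD of each group (n = 5) in black. Hsd3b5 lies between 3.40 and 4.83 in all 10 KO arrays and at 3.68 in wild type replicate 4, against 10.51 to 11.37 in the other 4 wild type arrays.

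With all arrays, 0 of the 9 genes were called lower or higher in tumors against wild type liver, where 0.565% of all genes were called at an adjusted p below 0.05. The unadjusted p of limma was below 0.05 for 5 of the 9, all of them lower in tumors, and for 17.4% of all genes in either direction. The log2 ratio of tumors against wild type liver was -5.73 (SE 1.31, adjusted p = 0.0783) for Hsd3b5, -4.04 (SE 1.01, adjusted p = 0.0949) for Slco1a1, -4.42 (SE 1.65, adjusted p = 0.214) for Elovl3 and -1.90 (SE 0.69, adjusted p = 0.207) for Cyp7b1. The SD of Hsd3b5 was 0.14 in tumors, against 3.32 in wild type liver with replicate 4 and 0.38 without it.

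In peritumoral against wild type liver the count was 0 of 9 as well, with 0.0403% of all genes called, and 5 of the 9 had an unadjusted p below 0.05, as did 15.1% of all genes. The log2 ratios were -5.71 for Hsd3b5 (SE 1.32, adjusted p = 0.14), -4.41 for Slco1a1 (SE 0.98, adjusted p = 0.125), -4.54 for Elovl3 (SE 1.64, adjusted p = 0.26) and -1.87 for Cyp7b1 (SE 0.67, adjusted p = 0.258). Both comparisons use the same wild type arrays, so the likeness of their ratios is not a result.

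Without wild type replicate 4, 3 of the 9 genes were lower in tumors, where 1.08% of all genes were called lower. The log2 ratio was -7.21 (SE 0.17, adjusted p = 9.44e-08) for Hsd3b5, -5.15 (SE 0.32, adjusted p = 0.000123) for Slco1a1 and -6.02 (SE 0.95, adjusted p = 0.0163) for Elovl3. Cyp7b1 had a log2 ratio of -2.41 (SE 0.59, adjusted p = 0.0645). Every tumor lay below all 4 remaining wild type arrays for 5 of the 9 genes, these 4 and Igf1, as in 8.08% of all genes.

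The same 3 genes were lower in peritumoral liver without that array, where 0.96% of all genes were called lower. The log2 ratios were -7.19 for Hsd3b5 (SE 0.29, adjusted p = 4.1e-06), -5.51 for Slco1a1 (SE 0.14, adjusted p = 9.69e-08) and -6.13 for Elovl3 (SE 0.94, adjusted p = 0.0227), while Cyp7b1 had -2.38 (SE 0.56, adjusted p = 0.0628). No peritumoral array overlapped the 4 wild type arrays for these 4 genes, as in 8.52% of all genes. Wild type replicate 4 was singled out with its values of these genes known, so the fits without it are a description of the other arrays and not independent evidence.

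**Figure D2:**
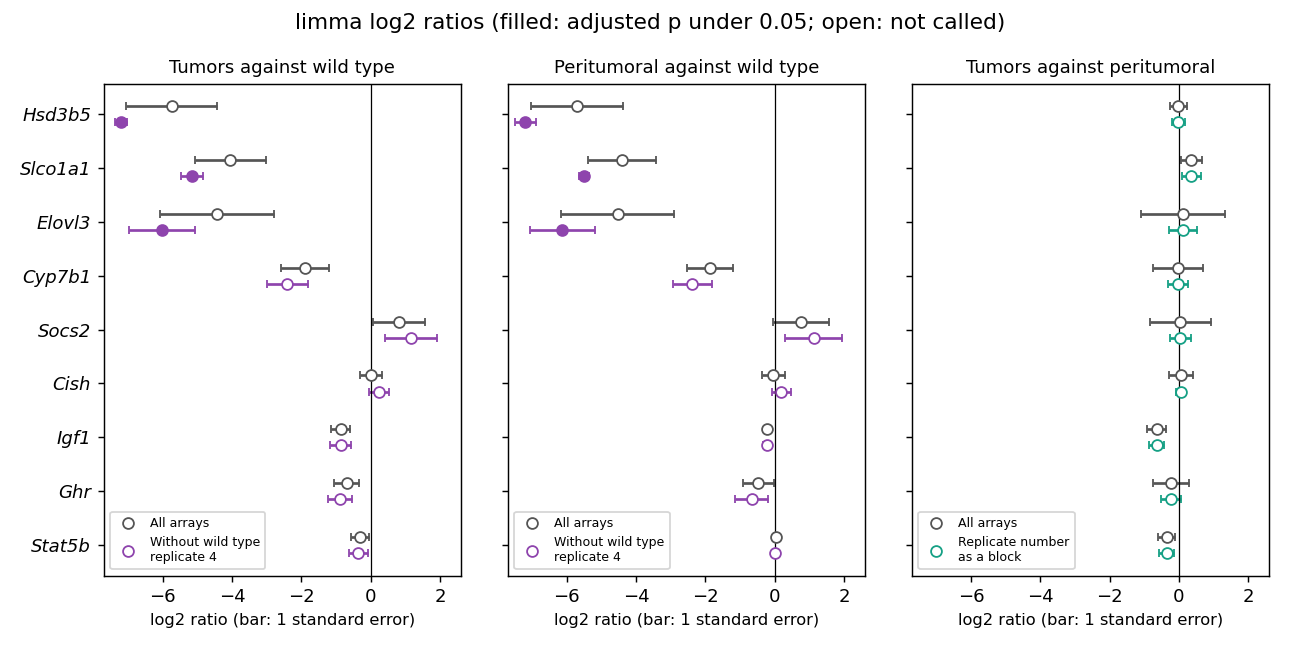
The limma log2 ratio (horizontal axis, bars of 1 SE) of each gene in the 3 comparisons, with all arrays in gray and, in color, without wild type replicate 4 or with the replicate number as a block, where filled points passed the test. Filled points appear only for Hsd3b5, Slco1a1 and Elovl3 without wild type replicate 4.

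Socs2, which damps GH signaling at the receptor and is itself a STAT5 target, did not pass the test in any comparison. It was at 6.16, 9.76, 7.17, 8.20 and 6.39 in tumors and at 5.94, 9.85, 5.91, 8.27 and 7.48 in peritumoral liver, against 6.18, 7.87, 5.92, 8.14 and 5.52 in wild type liver. The groups overlapped, and the level ran higher in tumor and peritumoral replicate 2 than in any other array. The log2 ratio was 0.81 (SE 0.75, adjusted p = 0.592) for tumors and 0.77 (SE 0.81, adjusted p = 0.632) for peritumoral liver against wild type liver.

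Cish, the feedback inhibitor with the motif shown above, had 6.20, 7.19, 5.98, 5.99 and 7.11 in tumors and 5.98, 7.41, 6.12, 6.07 and 6.64 in peritumoral liver. In wild type liver it had 6.40, 6.23, 6.38, 7.42 and 5.99. Single arrays of each group were high, and the group means were 6.49 ± 0.61 in tumors, 6.44 ± 0.60 in peritumoral liver and 6.48 ± 0.55 in wild type liver (SD, n = 5 each). The log2 ratio of tumors against wild type liver was 0.01 (SE 0.33, adjusted p = 0.989), and that of peritumoral against wild type liver was -0.04 (SE 0.32, adjusted p = 0.96).

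Igf1 was the 1 member for which wild type replicate 4 lay within the range of the other wild type arrays. It was at 9.69, 11.00, 10.79, 9.92 and 11.11 in tumors and at 10.89, 11.11, 11.41, 11.17 and 11.14 in peritumoral liver, against 11.28, 11.36, 11.36, 11.37 and 11.47 in wild type liver. All 5 tumors lay below all 5 wild type arrays, as did 2.84% of all genes, but the log2 ratio of -0.87 (SE 0.27, adjusted p = 0.153) did not pass. Tumor replicates 1 and 4 were lowest.

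The 3 probe sets of Igf1 disagreed in tumor replicate 5, where 1419519_at and 1452014_a_at had 10.79 and 12.45, each the highest of the 15 arrays, while 1437401_at had 10.10. When each probe set was tested on its own, 1437401_at was lower in tumors, with a log2 ratio of -1.26 (adjusted p = 0.0426). Its tumor levels of 9.73, 10.95, 10.78, 10.11 and 10.10 lay below the 11.61, 11.88, 11.39, 11.43 and 11.64 of wild type liver. For 1419519_at, tumors at 8.98 to 10.79 overlapped wild type liver at 10.31 to 10.62. For 1452014_a_at, tumors at 10.36 to 12.45 overlapped wild type liver at 11.90 to 12.27. In peritumoral against wild type liver the log2 ratio of the Igf1 average was -0.23 (SE 0.10, adjusted p = 0.309).

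Ghr, the receptor at the head of the pathway, was at 10.38, 9.46, 10.90, 10.40 and 9.15 in tumors and at 10.48, 8.48, 11.18, 10.83 and 10.42 in peritumoral liver. In wild type liver it was at 10.85, 10.76, 10.86, 9.97 and 11.31. The groups overlapped, and the log2 ratio was -0.69 (SE 0.35, adjusted p = 0.336) for tumors and -0.47 (SE 0.46, adjusted p = 0.603) for peritumoral liver against wild type liver. Peritumoral replicate 2 was the lowest array, and all 3 probe sets had their lowest level there.

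Stat5b, the transducer, was at 7.28, 6.98, 6.83, 6.92 and 5.73 in tumors, 7.25, 6.98, 7.05, 7.15 and 7.08 in peritumoral liver and 7.29, 7.00, 7.14, 6.89 and 6.99 in wild type liver. Only tumor replicate 5 left the range of the other arrays. The log2 ratio was -0.31 (SE 0.25, adjusted p = 0.538) for tumors and 0.04 (SE 0.09, adjusted p = 0.816) for peritumoral liver against wild type liver.

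Between tumors and peritumoral liver 0 of the 9 genes were called, where 0.0161% of all genes were, and 1 of the 9, Igf1, had an unadjusted p below 0.05, as did 9.28% of all genes. The log2 ratio of tumors against peritumoral liver was -0.02 (SE 0.24, adjusted p = 0.991) for Hsd3b5, 0.36 (SE 0.29, adjusted p = 0.77) for Slco1a1, 0.12 (SE 1.21, adjusted p = 0.989) for Elovl3 and -0.03 (SE 0.72, adjusted p = 0.996) for Cyp7b1. Igf1 was lower in the tumor than in the peritumoral array of the same number in 5 of 5 pairs, with differences of -1.20, -0.11, -0.62, -1.25 and -0.03 and a log2 ratio of -0.64 (SE 0.28, adjusted p = 0.526). For the other 4 genes the adjusted p lay between 0.729 and 0.996.

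Levels in tumor and peritumoral arrays of the same number were set beside those in arrays of different numbers. For Elovl3 the mean difference in size between arrays of the same number was 0.88, against 2.59 between arrays of different numbers. The same values were 0.66 and 1.55 for Cyp7b1, 0.54 and 1.87 for Socs2, 0.23 and 0.68 for Cish, and 0.61 and 1.01 for Ghr. The values lay closer to each other for the remaining members, at 0.64 and 0.67 for Igf1, 0.55 and 0.59 for Slco1a1, 0.37 and 0.40 for Hsd3b5, and 0.37 and 0.44 for Stat5b. Replicate 3 had the highest Elovl3 and Cyp7b1 of both tissues, and replicate 2 had the highest Socs2 and Cish of both.

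**Figure D3:**
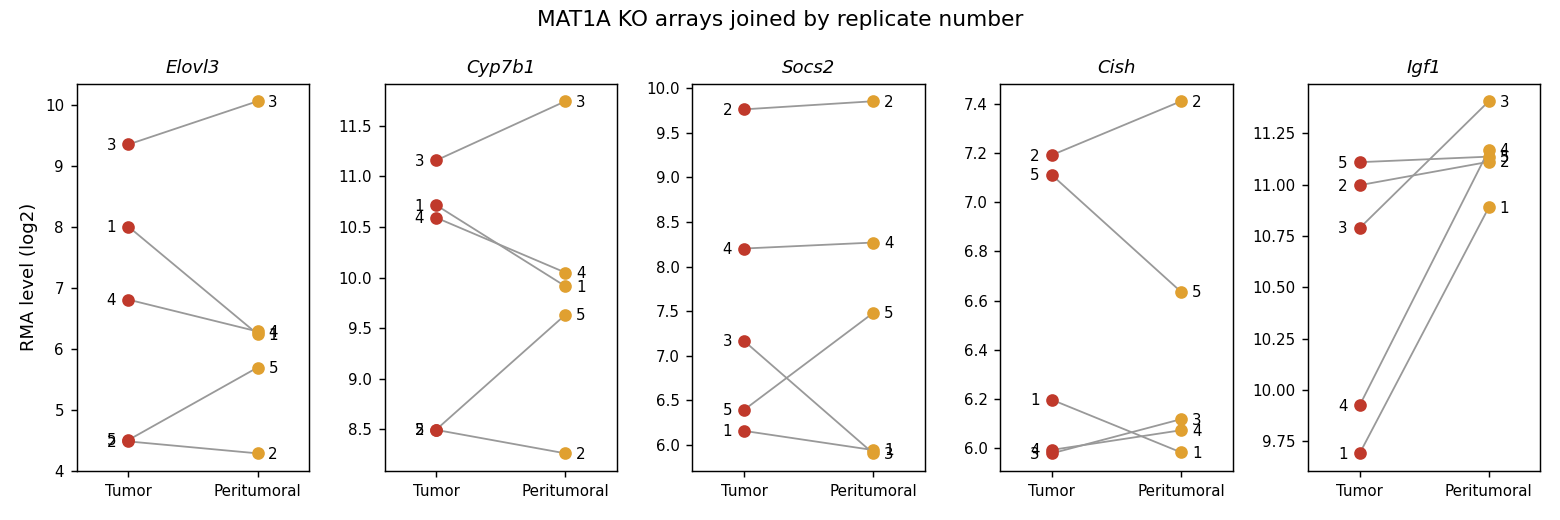
RMA level (log2) of 5 genes in tumors and peritumoral liver, with lines joining arrays of the same replicate number. Elovl3, Cyp7b1 and Socs2 keep similar levels along most lines, with mean differences of 0.88, 0.66 and 0.54, while Igf1 is lower in the tumor in all 5 pairs.

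The order of the arrays linked several members. Tumor replicate 2, tumor replicate 5, peritumoral replicate 2 and wild type replicate 4 had the 4 lowest levels of Elovl3 (4.48, 4.50, 4.28 and 4.66) and the 4 lowest of Ghr (9.46, 9.15, 8.48 and 9.97). The same 4 arrays had the 4 highest levels of Cish, which were 7.19, 7.11, 7.41 and 7.42. Of all genes, 2.25% had these arrays as the 4 lowest and 0.936% as the 4 highest. They are also the 4 arrays with the highest scores on the first principal component. The pattern was noticed after the values were seen, so no test was made of it. The repressor Bcl6 was lowest in these 4 arrays too, at 5.43, 5.21, 5.71 and 5.46, against 6.56 to 7.98 in the others. It was not alone among the genes of the lists used below. Stat5a, Igf2r, Cyp4a12a, Mup5, Ugt2b1, Keg1, Nat8, Lifr, Foxa1, Cyp2e1 and Alas2 were also lowest there, while Apoa1 and Mmp8 were highest. A part of Bcl6 in the levels of the members was not tested.

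Among 19 measured genes of GH signaling, 4 of them members, none was called in any comparison, with or without wild type replicate 4. The smallest p in tumors against wild type liver belonged to Grb10, an adaptor that binds growth factor receptors, with a log2 ratio of 0.45 (SE 0.11, adjusted p = 0.0939), and to Socs3, an inhibitor of cytokine receptors, with 1.00 (SE 0.47, adjusted p = 0.3). In peritumoral against wild type liver they belonged to Socs1 at -0.36 (adjusted p = 0.238) and Shc1 at 0.34 (adjusted p = 0.357). Jak2, the kinase of the receptor, lay between 5.55 and 6.84 in tumors and 6.35 and 6.69 in peritumoral liver, against 6.27 to 6.56 in wild type liver. The median log2 ratio of the list was -0.06 in tumors and 0.07 in peritumoral liver against wild type liver, beside -0.05 and -0.06 over all genes.

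Of 14 genes of the IGF axis, including Igf1, none was called with all arrays. Without wild type replicate 4, Igfals, whose product holds IGF1 in the circulating complex, was lower in tumors, with a log2 ratio of -1.33 (SE 0.20, adjusted p = 0.0132). Its levels were 8.23, 8.62, 8.76, 8.40 and 7.72 in tumors and 9.69, 9.50, 9.84 and 9.67 in wild type replicates 1, 2, 3 and 5, with 8.29 in wild type replicate 4. Igfbp3, a carrier of IGF1, had a log2 ratio of 1.15 in peritumoral against wild type liver (SE 0.34, adjusted p = 0.212), and each peritumoral array lay above all 5 wild type arrays, as in 1.12% of all genes.

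Of 15 other male-biased liver genes measured, none was called with all arrays, and their median log2 ratio was -0.80 in tumors and -0.38 in peritumoral liver against wild type liver, beside -0.05 and -0.06 over all genes. Without wild type replicate 4, Susd4, a regulator of complement, was lower in tumors, with a log2 ratio of -2.01 (SE 0.30, adjusted p = 0.0122), and the complement component C6 was lower in peritumoral liver, with -1.83 (SE 0.32, adjusted p = 0.0335). With all arrays the log2 ratio against wild type liver was below 0 for 12 of the 15 in tumors and 10 of the 15 in peritumoral liver. Without wild type replicate 4 it was below 0 for 13 and 11 of the 15, with medians of -1.228 and -0.735. Every tumor then lay below all 4 wild type arrays for 6 of the 15, as in 8.08% of all genes. Every peritumoral array did for 5 of the 15, as in 8.52% of all genes. Cyp4a12a, a fatty acid hydroxylase chosen after its values were seen, was at 12.28, 10.18, 12.78, 12.15 and 7.09 in tumors and 12.60, 7.76, 12.95, 12.16 and 12.48 in peritumoral liver, against 11.64, 11.23, 11.51, 6.01 and 11.85 in wild type liver. Of the 10 KO arrays, all low in Hsd3b5, 7 had Cyp4a12a above every wild type array.

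Of 20 female-biased liver genes measured, none was called with all arrays, and the median log2 ratio was 0.33 in tumors and 0.42 in peritumoral liver against wild type liver. Hao2, a hydroxy acid oxidase, had the smallest p in tumors, with a log2 ratio of 3.07 (SE 0.69, adjusted p = 0.0782). Sult3a1, a sulfotransferase of female liver, was at 5.89, 4.16, 6.37, 5.52 and 4.82 in peritumoral liver, against 3.31, 3.38, 3.59 and 3.22 in wild type replicates 1, 2, 3 and 5. Wild type replicate 4 had 9.97, the highest of the 15 arrays, and without it Sult3a1 was higher in peritumoral liver by 1.98 (SE 0.39, adjusted p = 0.0421). Without that array, 6 of the 20 genes had every peritumoral array above the 4 wild type arrays, as did 4.29% of all genes. Every tumor lay above all 4 for 2 of the 20, as in 5.45% of all genes, and below all 4 for 1 of the 20, as in 8.08% of all genes.

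Among 14 regulators of sex-biased liver expression, the nuclear factor Nfia was lower in tumors with all arrays, with a log2 ratio of -1.26 (SE 0.12, adjusted p = 0.00208), and no other was called. It was at 4.52, 4.18, 4.55, 4.40 and 4.29 in tumors and 4.68, 4.52, 4.78, 4.62 and 5.19 in peritumoral liver, against 5.54, 5.43, 5.51, 5.83 and 5.93 in wild type liver. Every KO array lay below every wild type array, wild type replicate 4 included. Without that array Nfia was also lower in peritumoral liver, at -0.84 (SE 0.15, adjusted p = 0.0347), and its relative Nfib was lower in tumors, at -1.15 (SE 0.21, adjusted p = 0.0271).

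Wild type replicate 4 differed from the other 4 wild type arrays well beyond the members. It lay below all 4 in 14 of the 15 male-biased genes, as in 39.2% of all genes, and above all 4 in 10 of the 20 female-biased genes, as in 23.4% of all genes. The Y-linked Eif2s3y was at 7.82 in this array, within the 7.75 to 8.32 of the other wild type arrays. Xist was at 3.50 in it, against 3.61 to 3.81 in the others. Acute phase genes, which the liver makes in inflammation, were above all 4 in 19 of 23, and granulocyte markers in 8 of 9. The granulocyte marker S100a8 was at 12.92 there, against 5.92 to 7.29 in the other wild type arrays, and the mean over the 9 granulocyte markers was 8.64, against 4.76 to 5.19. That mean lay between 4.72 and 5.80 in tumors and 4.72 and 6.40 in peritumoral liver. The part of inflammation or of granulocytes in the low Hsd3b5 and Slco1a1 of wild type replicate 4 was not tested.

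Lcn2, an acute phase gene, was at 11.01, 13.23, 12.28, 11.64 and 12.37 in tumors and 12.16, 13.02, 10.79, 11.99 and 13.49 in peritumoral liver. In wild type liver it was at 8.90, 8.07, 10.34, 13.39 and 7.47, and without replicate 4 it was higher in tumors by 3.41 (adjusted p = 0.024) and in peritumoral liver by 3.60 (adjusted p = 0.0347). Orm2, another acute phase gene, was higher in tumors without that array, with a log2 ratio of 2.32 (SE 0.46, adjusted p = 0.0344). It was at 10.61, 11.42, 11.45, 11.40 and 10.66 in tumors, against 8.77, 8.44, 10.26 and 7.70 in wild type replicates 1, 2, 3 and 5 and 13.07 in wild type replicate 4. Over the whole list in tumors, 16 of the 23 log2 ratios against wild type liver were below 0 with all arrays (median -0.20) and 14 of 23 without wild type replicate 4. In peritumoral liver 21 of the 23 were above 0 with all arrays (median 0.34). The part of inflammation in the levels of the members was not tested.

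**Figure D4:**
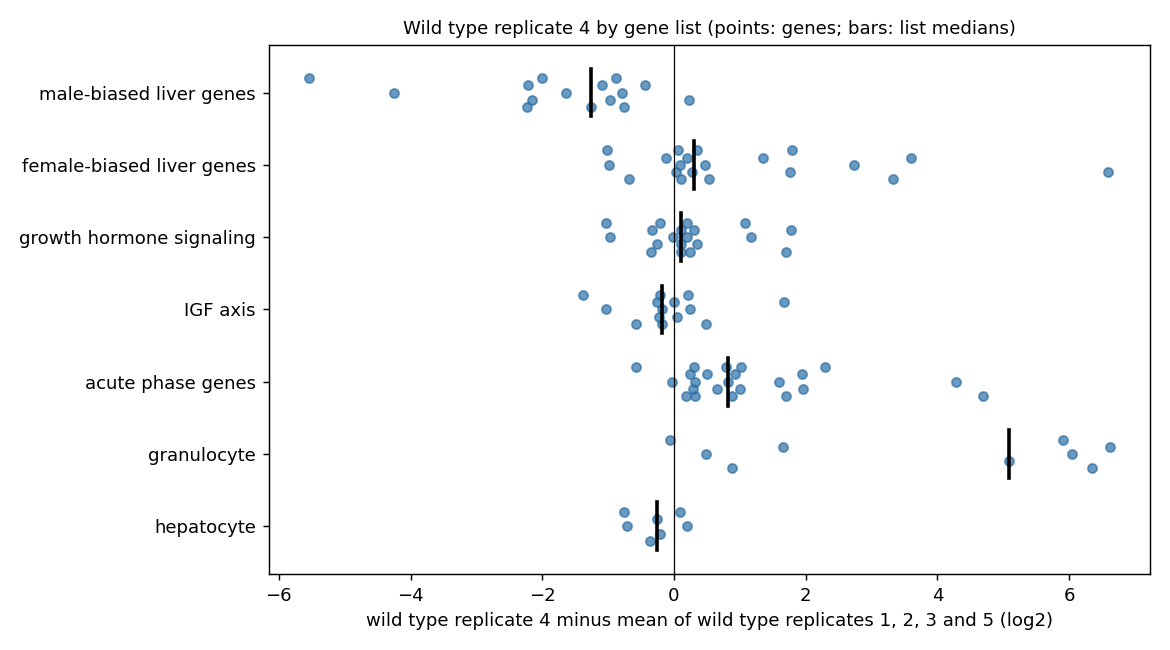
Level of wild type replicate 4 minus the mean of the other 4 wild type arrays (log2, horizontal axis) for each gene (points) of 7 gene lists, with list medians as bars. The median is -1.26 for male-biased genes, 0.31 for female-biased genes, 0.82 for acute phase genes and 5.08 for granulocyte markers.

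Of the 27 genes whose levels ran most like those of the 9 members over the 15 arrays, 3 for each, 4 were members themselves, in the pairs of Hsd3b5 with Slco1a1 and Elovl3 with Cyp7b1. Slco1a1 was the nearest to Hsd3b5 with a Pearson r of 0.978, followed by Col5a3 (0.934) and Nsg2 (0.920), and these values rest on 4 wild type arrays that lie far from the other 11. Ky (0.935) and Lama3 (0.909) came after Hsd3b5 for Slco1a1. Cyp7b1 was nearest to Elovl3 (0.956), before Trp53inp2 (0.924) and Lama3 (0.922), and Cyp7b1 itself ran with Trp53inp2 (0.962) and Hsd3b2 (0.955). Hsd3b2 and Hsd3b3 are close relatives of Hsd3b5, so their probes may share signal. Neither was among the 3 genes nearest to Hsd3b5, and shared signal was not tested.

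Ghr ran with Sec14l2 (0.978), Hsd3b3 (0.975) and Glo1 (0.964), and its r with Cish was -0.837. Cish ran with the chemokine receptor Ccr1 (0.907), Ntmt1 (0.879) and D10Wsu102e (0.864), and Socs2 with Ptpn12 (0.884), Atp6ap2 (0.872) and Pla2g7 (0.867). Igf1 ran with Sfxn1 (0.935), Gsto1 (0.923) and Apoa5 (0.904), of which Gsto1 was lowest in tumor replicates 1 and 4, at 7.08 and 6.79. Stat5b ran with Wdfy3 (0.956), Apob (0.940) and Flii (0.936), and each of these was lowest in tumor replicate 5, as Stat5b was. These r values describe the arrays, which share groups and the arrays with the highest scores on the first principal component, and no p was computed for them.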

How the data were processed

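The authors hybridized biotin-labeled RNA to Affymetrix mouse arrays, which were processed with GCOS 1.4 and RMA per the submitters' processing notes. The deposited values are log2 levels per probe set that RMA had background-corrected and brought to a common distribution across arrays, a step that can compress differences of genes near background. The study's methods name the Affymetrix Mouse Genome 430 2.0 and 430A 2.0 arrays, and its sample list gives the first for these samples. The number of probe sets in the deposited values, 22690, fits the second and smaller array. The RMA version is not given in the sources used here, and gene symbols came from the platform annotation. The deposited log2 ratios of KO over wild type arrays are the authors' own comparisons and were not used. Of 22690 probe sets, 20380 with 1 symbol were averaged to 12393 genes. Each comparison was fitted on its 10 arrays with limma 3.58.1 in R 4.3.3 (lmFit, eBayes, two-sided), with Benjamini-Hochberg adjustment over all genes and a threshold of 0.05, and checked on simulated data. For arrays, the number of samples limits the precision.

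The members and gene lists were chosen with earlier results of these data known. The text names all members, the 2 largest rises and falls among called genes of a list or, if none was called, genes with the smallest p, and the 3 genes most like each member. Genes named apart from this rule, such as Jak2, Bcl6, Cyp4a12a and S100a8, were chosen after their values were seen. The lists of cholangiocyte, macrophage, lymphocyte, stellate and erythroid markers had no gene called with all arrays, nor had those of hepatocytes, granulocytes and endothelium. Without wild type replicate 4, the endothelial marker Lyve1 was higher in tumors by 1.25, where 1.49% of all genes were called higher. Of the 6 endothelial markers, 4 had a log2 ratio below 0 there, with a list median of -0.35. The stellate marker Pdgfrb was higher in peritumoral liver by 0.57, where 1.19% of all genes were called higher. Of the 7 stellate markers, 5 had a log2 ratio above 0 there and 2 below.

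Equally numbered tumor and peritumoral arrays deviated together from their group means, with correlations across genes of 0.353, 0.673, 0.271, 0.308 and 0.117, all over 0.1. The best match of a tumor was the peritumoral array of its own number in 4 of 5, while tumor replicate 4 matched peritumoral replicate 1 best. The main fit did not use these pairs, which rest on the data alone, and an alternative fit used the replicate number as a block. Only 1 of 5 tumor and 2 of 5 peritumoral numbers had a correlation over 0.1 with the wild type array of the same number. Alternatives were another choice of probe sets, scaling, filter, limma setting or block, and arrays left out. Promoters came from RefSeq GRCm38.p6.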

Additional observations from a re-analysis of the deposited data

Results flagged for a closer look

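Of 27 sets of 5 arrays (9 genes in 3 groups), 6 held an array whose gap to the nearest other array was over 0.71 of the range, Dixon's critical value, where chance gives about 1 in 20. Of these, 5 were wild type replicate 4. It was at 3.68 for Hsd3b5 (other wild type arrays 10.51 to 11.37), 4.15 for Slco1a1 (9.42 to 9.90), 4.66 for Elovl3 (12.46 to 12.98) and 9.77 for Cyp7b1 (11.80 to 12.59), and above the others for Cish, at 7.42 (5.99 to 6.40). The other was peritumoral replicate 2 for Ghr, at 8.48, with the other peritumoral arrays between 10.42 and 11.18. The 9 genes were measured on the same arrays, so these are not independent.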

How the results depend on the processing

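The count of members called differed between settings. In tumors against wild type liver, 0 of 9 were called with all arrays, 2 (Hsd3b5 and Slco1a1) with all 3 groups in 1 fit, 5 with array weights (these 2, Elovl3, Cyp7b1 and Igf1) and 1 with 1 test per probe set (Igf1). The count was 3 without wild type replicate 4, tumor replicate 2 and peritumoral replicate 2, and 5 when tumor replicate 5 was also left out, an alternative chosen after seeing the data. In peritumoral against wild type liver it was 4 with array weights and 4 under these removals, which are the same fit there because no tumor array enters it. In tumors against peritumoral liver it was 1 (Igf1) with array weights. With single arrays left out, the counts lay between 0 and 3, 0 and 3, and 0 and 0, and 3 only without wild type replicate 4. Other probe set, scaling, filter, trend and block settings left them at 0.

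Of 594 alternative values of 27 log2 ratios, 518 kept both their sign and their side of the threshold, 35 newly passed and 41 changed sign. The sign changes were all of ratios that were not called. Cish against wild type liver turned negative in tumors with repeated quantile normalization (-0.021), array weights (-0.17) and the 4 arrays left out (-0.19). Against peritumoral liver, tumors had -0.03 and -0.15 for Cish and 0.38 and 0.49 for Cyp7b1 with array weights and with the 4 arrays left out. Hsd3b5 there was at 0.002 after centering on medians, and Stat5b in peritumoral against wild type liver at -0.029 after repeated quantile normalization. With single arrays left out, Cish ranged from -0.16 to 0.24 in tumors and -0.28 to 0.19 in peritumoral against wild type liver. In tumors against peritumoral liver the ranges were -0.12 to 0.29 for Cish, -0.44 to 0.43 for Cyp7b1, -0.56 to 1.00 for Elovl3, -0.671 to 0.006 for Ghr, -0.14 to 0.22 for Hsd3b5 and -0.51 to 0.64 for Socs2. The cause was not tested.

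The replicate number as a block narrowed the SE of Elovl3 in tumors against peritumoral liver to 0.40 and gave an adjusted p of 0.299 for Igf1, and this pairing changed no call of a member. Genes called numbered 70 in tumors against wild type liver (10 to 319 with 1 array left out, 10 to 1838 otherwise), 5 in peritumoral against wild type liver (4 to 267, 0 to 1082) and 2 in tumors against peritumoral liver (0 to 36, 1 to 673). The alternative based on the authors' ratios was not run, since these are the authors' own comparisons. With 5 arrays a group, and levels near background in most arrays for Hsd3b5 and Slco1a1, the size of their ratios may be limited by the floor of the signal.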
